A study of Mus musculus with 14 samples.

Results

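Peroxisomes are single-membrane organelles that oxidise very long and branched fatty acids, make ether lipid precursors and break down hydrogen peroxide. They divide by elongation, driven by PEX11 proteins, and scission by the GTPase DRP1, which MFF and FIS1 recruit to peroxisomes as well as to mitochondria. Their membrane proteins are inserted by PEX19 and PEX3, and their matrix enzymes are imported from the cytosol by the cycling receptor PEX5 through a docking complex that contains PEX14. The 8 genes described here cover these steps: Pex11a and Pex11g (division), Pex3 and Pex19 (membrane insertion), Pex5 and Pex14 (matrix import), Abcd3 (entry of fatty acids) and Lonp2 (turnover of matrix proteins). They were taken by symbol from the deposited tables, in which all 8 were found, among 18507 genes in either table and 16196 in both.

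RNA was sequenced from mouse oocytes at the germinal vesicle (GV) stage, before meiosis resumes, and after ovulation. WT oocytes carried 2 loxP-flanked alleles of Mff (Mff fl/fl), and CKO oocytes carried the same alleles together with Gdf9-Cre, which drives Cre from an oocyte promoter and so leaves the surrounding somatic cells intact. No group carried Gdf9-Cre without the loxP-flanked alleles, so the loss of Mff and the presence of Cre cannot be told apart. The GV stage had 4 libraries of each genotype and the ovulated stage had 3 of each. The labels used here name no strain, age, ovulation treatment, or number of oocytes and animals per library, so p-values reflect only the spread among these libraries, which may be technical. Levels are CPM, counts scaled to a fixed library total, with TMM factors that adjust that total for a few dominant transcripts. They are shares of the library, so less RNA of 1 gene per oocyte and a larger pool of other RNA cannot be told apart, nor can fewer cells of a type and less RNA per cell. Differences are log2 fold changes with a standard error (SE), tested with edgeR's quasi-likelihood F test, and a gene is called at a Benjamini-Hochberg adjusted p under 0.05 over all genes tested.

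Library totals were 26575593 to 28847424 counts. At the GV stage WT 2, CKO 1 and CKO 2 were set off from the other 5 libraries by the first principal component (43.8% of the variance). The 100 most abundant genes held 38.1%, 35.2% and 42.4% of their counts and 48.2% to 51.1% in the other GV libraries. Among ovulated libraries WT 3 and CKO 2 lay farthest apart. All 15 oocyte markers were above 0 in every library, with summed levels of 27400 to 41800 CPM. Granulosa and cumulus markers summed to 51.3 to 112 CPM at the GV stage and 90.6 to 118 CPM after ovulation, mostly Cyp19a1. Of the 19 found, 14 in WT and 15 in CKO were above 0 in every GV library. After ovulation 7 were above 0 in every library of each genotype. Foxl2, Amhr2, Inha, Fst and Hsd17b1 were at 0 in all 6 ovulated libraries. Blood, immune and stromal markers summed to 23.4 to 44.8 CPM at the GV stage and 55.0 to 140 CPM after ovulation, mostly Pecam1. Of these 14, 9 in WT and 6 in CKO were above 0 in every GV library. In ovulated oocytes 4 were above 0 in every library of each genotype. Ptprc, Lyz2, Col1a2, Col3a1 and Cdh5 were at 0 in all 6 ovulated libraries. The part of these markers in the stage differences was not tested.

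Mff, the targeted gene, measured 925, 477, 653 and 945 CPM in GV WT libraries and 30.1, 38.2, 47.2 and 42.9 CPM in GV CKO libraries. In ovulated oocytes Mff measured 308, 304 and 688 CPM in WT libraries and 31.3, 43.4 and 54.4 CPM in CKO libraries. Every CKO library lay below every WT library, by -4.27 on the log2 scale (SE 0.307, adjusted p = 0.000103) in GV and -3.31 (SE 0.361, adjusted p = 0.000155) in ovulated oocytes. From GV to ovulated, Mff changed by -0.79 in WT (SE 0.330, adjusted p = 0.042), with overlapping groups. This value was -1.30 without ovulated WT 3, and the call was lost with no filter on low counts (-0.71), without GV WT 1 or 4, GV CKO 2, or ovulated WT 1 or 2 (-0.79 to -0.60), and with length and GC trends removed (-0.35, adjusted p = 0.294). The ovulated CKO difference of Mff missed the threshold once, on log2(FPKM + 1) with no filter (-2.99, adjusted p = 0.063).

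As among all genes tested, more of the 8 genes were called between the stages of the oocyte than between the genotypes, so this is not particular to them. In WT oocytes all 8 were called between GV and ovulated, where 66.4% of all genes tested were called. Pex11a, Pex3 and Pex5 rose (30.3% of all genes did) and Pex11g, Pex19, Pex14, Abcd3 and Lonp2 fell (36.2% of all genes did). In CKO oocytes 5 of the 8 were called, with Pex5 higher and Pex11g, Pex19, Pex14 and Abcd3 lower, beside 54.4% of all genes (23.2% higher and 31.2% lower). Between the genotypes 0 of the 8 were called in GV oocytes, where 0.0163% of all genes were called. DESeq2 also called 0 of the 8 there, and at an unadjusted p under 0.05 the edgeR test counted 819 genes, or 6.66%, among them Lonp2 and Pex14. In ovulated oocytes 1 of the 8, Lonp2, was called between the genotypes, beside 7.84% of all genes (6.44% higher and 1.4% lower). Of the 8, 1 was called for a difference in the CKO effect between the stages, Pex11g, beside 3.26% of all genes. The genotype comparisons and the stage comparisons share libraries, so their values below are given side by side and not as separate evidence.

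**Figure D1:**
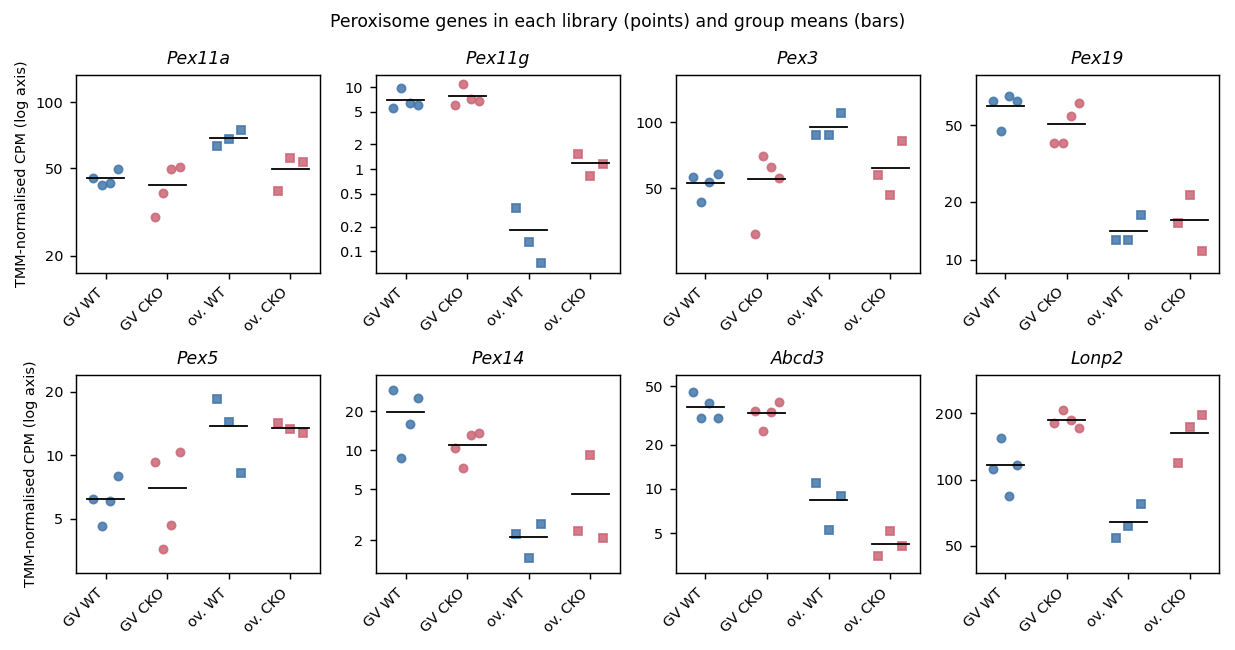
TMM-normalised CPM on a log axis (y) in each group (x) for the 8 genes, with 1 point for each library (circles GV, squares ovulated, blue WT, red CKO) and a bar at the group mean; all panels span at least an 8-fold range or more where values need it. Lonp2 in ovulated WT (54.4 to 77.6 CPM) lies below every other group, Pex11g in ovulated WT lies at 0.0712 to 0.342 CPM, and Pex19, Pex14 and Abcd3 are lower after ovulation in both genotypes apart from 1 ovulated CKO library of Pex14.

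The PEX11 proteins elongate the peroxisome membrane before it is cut. In GV oocytes Pex11a measured 45.1, 42.1, 42.8 and 49.9 CPM in WT libraries and 30.0, 38.7, 49.6 and 50.5 CPM in CKO libraries. In ovulated oocytes Pex11a measured 62.9, 67.9 and 74.5 CPM in WT libraries and 39.4, 55.5 and 53.6 CPM in CKO libraries. The GV groups overlapped, with CKO spread over both sides of WT, while all 3 ovulated WT libraries lay above all CKO libraries. The CKO difference was -0.11 in GV (SE 0.207, adjusted p = 0.896) and -0.43 in ovulated oocytes (SE 0.248, adjusted p = 0.315). Pex11a rose by 0.61 from GV to ovulated in WT (SE 0.230, adjusted p = 0.0268), and its value in CKO was 0.23 (SE 0.230, adjusted p = 0.411). The WT call was lost without any 1 of GV WT 1, 2 or 3 (adjusted p = 0.0521, 0.054 and 0.0617) or of ovulated WT 2 or 3 (0.0597 and 0.076). It was also lost when genes under a mean of 10 CPM were left out (0.41, adjusted p = 0.0943).

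Pex11g, a further PEX11 paralogue, overlapped between the genotypes at the GV stage and was close to 0 in ovulated WT oocytes. In GV oocytes Pex11g measured 5.63, 9.72, 6.41 and 6.06 CPM in WT libraries and 6.08, 10.9, 7.14 and 6.71 CPM in CKO libraries. In ovulated oocytes Pex11g measured 0.342, 0.129 and 0.0712 CPM in WT libraries and 1.52, 0.838 and 1.17 CPM in CKO libraries. The ovulated WT values rest on 2 to 11 counts and the ovulated CKO values on 33 to 53, and the gene passed the filter on low counts in that stage only through the CKO libraries. Pex11g fell by 5.21 on the log2 scale from GV to ovulated in WT (SE 0.496, adjusted p = 1.23e-07), with -2.71 in CKO (SE 0.408, adjusted p = 3.54e-05) and no overlap between the stages in either genotype.

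The CKO difference of Pex11g was 0.13 in GV (SE 0.258, adjusted p = 0.903) and 2.70 in ovulated oocytes (SE 0.825, adjusted p = 0.058), the second with groups that did not overlap. The difference between these effects was 2.50 (SE 0.595, adjusted p = 0.0285). This call was lost without GV WT 3, GV CKO 3, GV CKO 4, ovulated WT 2 or ovulated WT 3 (adjusted p = 0.05, 0.0509, 0.0502, 0.0837 and 0.0527). It was lost as well without the 3 outlying GV libraries (2.45, adjusted p = 0.0717) and without the 2 ovulated libraries lying farthest apart (2.42, adjusted p = 0.0604). Over its alternatives the ovulated CKO difference lay between 0.94, on log2(FPKM + 1) with no filter, and 3.54, without ovulated WT 1, with adjusted p from 0.00181 to 0.193. A gene that passes a filter through its high group alone has to differ, so nothing is drawn from these values. The length implied by counts and deposited FPKM was 0.609 to 0.695 kb in GV WT and 0.617 to 0.667 kb in GV CKO libraries. It was 1.44 to 2.50 kb in ovulated WT libraries, which rests on 2 to 11 counts and FPKM of 0.03 to 0.28, and 0.884 to 1.94 kb in ovulated CKO libraries. The annotated Pex11g transcripts include a form of 666 bases and a form of 2870 bases (GENCODE, GRCm38). Whether the counted forms differed between stages was not tested.

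Pex3 encodes the membrane anchor on which PEX19, the cytosolic chaperone of peroxisomal membrane proteins, docks its cargo. In GV oocytes Pex3 measured 56.0, 43.3, 53.1 and 58.2 CPM in WT libraries and 30.8, 70.3, 62.5 and 55.6 CPM in CKO libraries. In ovulated oocytes Pex3 measured 86.9, 87.7 and 110 CPM in WT libraries and 57.1, 46.7 and 82.2 CPM in CKO libraries. The ovulated WT libraries lay above all other libraries of either stage, and ovulated CKO overlapped with GV CKO. Pex3 rose by 0.85 from GV to ovulated in WT (SE 0.273, adjusted p = 0.0107), and its value in CKO was 0.18 (SE 0.274, adjusted p = 0.605). The CKO difference was 0.03 in GV (SE 0.242, adjusted p = 0.971) and -0.58 in ovulated oocytes (SE 0.268, adjusted p = 0.204), and the difference between these effects did not pass (-0.67, adjusted p = 0.434).

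Pex19 moved the other way with stage. In GV oocytes Pex19 measured 67.0, 46.6, 70.3 and 66.7 CPM in WT libraries and 40.4, 40.4, 55.9 and 65.4 CPM in CKO libraries. In ovulated oocytes Pex19 measured 12.6, 12.6 and 17.2 CPM in WT libraries and 15.5, 21.6 and 11.1 CPM in CKO libraries. Every ovulated library lay below every GV library, and the genotypes overlapped at both stages. Pex19 fell by 2.15 in WT (SE 0.292, adjusted p = 6.06e-06) and also in CKO (-1.65, SE 0.286, adjusted p = 0.00013). The CKO difference was -0.33 in GV (SE 0.231, adjusted p = 0.764) and 0.22 in ovulated oocytes (SE 0.330, adjusted p = 0.751). The transcripts of this anchor and chaperone pair thus changed in opposite directions in WT oocytes, 0.85 for Pex3 and -2.15 for Pex19.

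PEX5 is the shuttling receptor that recognises the C-terminal targeting signal of most matrix enzymes. In GV oocytes Pex5 measured 6.22, 4.62, 6.05 and 8.00 CPM in WT libraries and 9.26, 3.59, 4.68 and 10.3 CPM in CKO libraries. In ovulated oocytes Pex5 measured 18.5, 14.4 and 8.26 CPM in WT libraries and 14.2, 13.3 and 12.8 CPM in CKO libraries. Ovulated libraries lay above the GV libraries of their genotype, though ovulated WT 3 exceeded the highest GV WT library by less than the spread within either group. Pex5 rose by 1.15 in WT (SE 0.362, adjusted p = 0.00969) and by 0.94 in CKO (SE 0.360, adjusted p = 0.0339). The WT call was lost without ovulated WT 1 (0.86, adjusted p = 0.0707). The CKO call was lost without any 1 of GV CKO 2 or 3 (adjusted p = 0.0948 and 0.0967) or of the 3 ovulated CKO libraries (0.08, 0.0566 and 0.0584), and without the 3 outlying GV libraries (0.83, adjusted p = 0.0832). The CKO difference was 0.16 in GV (SE 0.364, adjusted p = 0.909) and 0.00 in ovulated oocytes (SE 0.336, adjusted p = 0.997).

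PEX14 is the docking protein that receives loaded PEX5 at the membrane. In GV oocytes Pex14 measured 29.5, 8.75, 16 and 25.4 CPM in WT libraries and 10.4, 7.30, 13.1 and 13.6 CPM in CKO libraries. In ovulated oocytes Pex14 measured 2.24, 1.45 and 2.67 CPM in WT libraries and 2.38, 9.16 and 2.10 CPM in CKO libraries. Of the 6 ovulated libraries, 5 lay between 1.45 and 2.67 CPM, and CKO 2 stood alone at 9.16 CPM, above the lowest GV libraries of both genotypes. Pex14 fell by 3.23 in WT (SE 0.540, adjusted p = 4.93e-05) and also in CKO (-1.28, SE 0.491, adjusted p = 0.0349, with overlapping groups). The CKO call was lost with no filter on low counts (adjusted p = 0.0602) and without GV CKO 3 or 4 (0.0685 and 0.0724), ovulated WT 3 (0.0648), or ovulated CKO 1 or 3 (0.146 and 0.149), and the value was -2.23 (adjusted p = 0.00145) without ovulated WT 3 and CKO 2. The CKO difference was -0.86 in GV (SE 0.372, adjusted p = 0.739) and 1.13 in ovulated oocytes (SE 0.564, adjusted p = 0.242), the second falling to 0.12 without ovulated CKO 2.

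Abcd3 encodes the half-transporter PMP70, which brings long and branched acyl groups into the peroxisome. In GV oocytes Abcd3 measured 45.9, 30.4, 38.4 and 30.4 CPM in WT libraries and 34.1, 24.7, 33.2 and 38.9 CPM in CKO libraries. In ovulated oocytes Abcd3 measured 10.9, 5.23 and 8.97 CPM in WT libraries and 3.47, 5.18 and 4.05 CPM in CKO libraries. Every ovulated library lay below every GV library, and the ovulated WT and CKO libraries met without overlapping, at 5.23 and 5.18 CPM. Abcd3 fell by 2.11 in WT (SE 0.302, adjusted p = 9.88e-06) and also in CKO (-2.95, SE 0.315, adjusted p = 1.27e-06). The CKO difference was -0.16 in GV (SE 0.228, adjusted p = 0.855) and -0.96 in ovulated oocytes (SE 0.393, adjusted p = 0.153), the second passing in 1 fit over all 14 libraries (-0.98, adjusted p = 0.0443). The difference between these effects did not pass (-0.84, adjusted p = 0.326).

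Lonp2 encodes the ATP-dependent Lon protease of the peroxisome matrix, which degrades damaged enzymes and takes part in processing imported ones. In GV oocytes Lonp2 measured 111, 154, 83.9 and 116 CPM in WT libraries and 180, 207, 186 and 172 CPM in CKO libraries. In ovulated oocytes Lonp2 measured 54.4, 61.2 and 77.6 CPM in WT libraries and 119, 174 and 197 CPM in CKO libraries. All CKO libraries lay above all WT libraries of their stage. The ovulated difference passed the test, with 64.4 ± 11.9 CPM in WT and 163 ± 39.8 CPM in CKO (SD, n = 3 each), or 1.37 on the log2 scale (SE 0.267, adjusted p = 0.00548). Over the alternatives this value lay between 1.22 and 1.62, and it missed the threshold once, on log2(FPKM + 1) with no filter on low values (1.60, adjusted p = 0.0761).

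In GV oocytes Lonp2 averaged 116 ± 28.8 CPM in WT and 186 ± 14.98 CPM in CKO (SD, n = 4 each), or 0.66 on the log2 scale (SE 0.204), which did not pass (unadjusted p = 0.00738, adjusted p = 0.535). Without the 3 outlying GV libraries it was 0.77 (adjusted p = 0.0802). The CKO differences of Lonp2 at the 2 stages did not pass the test of their difference (0.67, SE 0.350, adjusted p = 0.382). An effect particular to ovulated oocytes is thus not shown. From GV to ovulated, Lonp2 fell by 0.85 in WT (SE 0.252, adjusted p = 0.00633), a call that ended with length and GC trends removed (-0.38, adjusted p = 0.19), and its value in CKO was -0.19 (SE 0.248, adjusted p = 0.542). The length implied by counts and FPKM was 1.34 to 1.46 kb in all 14 libraries, below the 2860 bases of the longest coding transcript and nearer to coding forms of 1550 and 1556 bases, and which forms the reads came from was not tested.

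**Figure D2:**
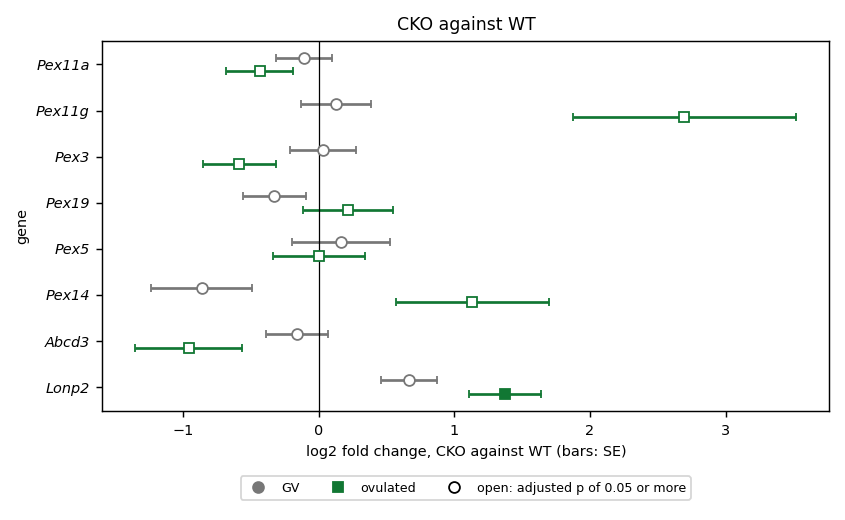
Log2 fold change of CKO against WT (x, with bars of 1 SE) for each gene (y), in GV (grey circles, 4 against 4 libraries) and ovulated oocytes (green squares, 3 against 3); open symbols have an adjusted p of 0.05 or more. Lonp2 in ovulated oocytes, at 1.37, is the only filled symbol; Pex11g in ovulated oocytes has the widest bar (2.70, SE 0.825).

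Counted by overlap, 5 of the 8 genes had ovulated WT and CKO libraries that did not overlap, with Pex11g and Lonp2 higher in CKO and Pex11a, Pex3 and Abcd3 lower, where 29% of all genes tested did not overlap. Pex11g passed the filter in that stage only through the CKO libraries and had to differ, so nothing is drawn from its place in this count. In GV oocytes only Lonp2 of the 8 did not overlap, where 4.19% of all genes did not. On the deposited FPKM, which carry no TMM factor, the ovulated groups of Pex11a, Pex3 and Abcd3 overlapped and those of Pex11g and Lonp2 did not. Lonp2 in GV oocytes then overlapped too, at 46.9 to 133 FPKM in WT and 99.0 to 167 FPKM in CKO. The median log2 fold change of the 8 was -0.04 in GV and 0.11 in ovulated oocytes, beside 0.03 and -0.00 over all genes tested.

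Between stages all 8 genes had WT libraries that did not overlap, where 68.7% of all genes tested did not, and 4 of the 8 (Pex11g, Pex19, Pex5 and Abcd3) had CKO libraries that did not, where 52.4% of all genes did not. The median log2 fold change of the 8 from GV to ovulated was -1.48 in WT and -0.73 in CKO, beside -0.17 and -0.19 over all genes. With each library's trend over transcript length and GC content removed (a setting chosen after seeing the data), the median of all genes moved to 0.04 in WT and 0.03 in CKO. In WT, Pex19 then stood at -0.90 and Pex14 at -1.81, both still called, Pex11a at 1.36 and Pex5 at 1.75, and Lonp2 was no longer called (-0.38, adjusted p = 0.19). In CKO, Pex11a and Pex3 were called as higher (0.93 and 0.60, adjusted p = 0.000344 and 0.0249), Pex14 was no longer called (-0.70, adjusted p = 0.111), Pex19 stood at -0.70, and Lonp2 changed sign to 0.23 (adjusted p = 0.441). Pex11g and Abcd3 were then the lowest of the 8 in both genotypes, at -4.55 and -2.32 in WT and -2.27 and -2.93 in CKO.

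**Figure D3:**
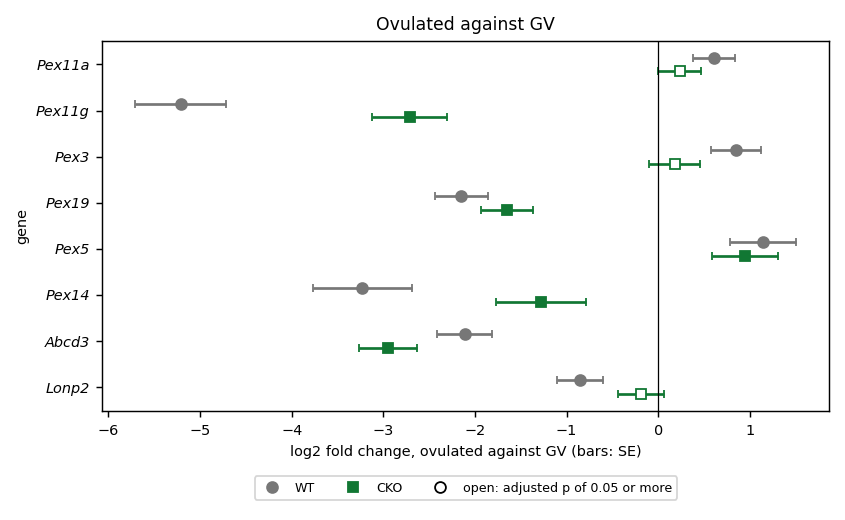
Log2 fold change of ovulated against GV oocytes (x, with bars of 1 SE) for each gene (y), in WT (grey circles) and CKO (green squares); open symbols have an adjusted p of 0.05 or more. All 8 WT symbols are filled, from -5.21 for Pex11g to 1.15 for Pex5, and in CKO Pex11a, Pex3 and Lonp2 are open.

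Levels between genes were compared on FPKM, which divides by transcript length. In GV WT oocytes Lonp2 was the most abundant of the 8 at 73.3 ± 40.1 FPKM, and Pex5 the least at 1.83 ± 0.210 FPKM (SD, n = 4 each), neither overlapping with its neighbour in the order. Between them came Pex3 (23.4 FPKM), Pex11a (18.4), Pex19 (17.8), Pex11g (9.73), Abcd3 (9.26) and Pex14 (8.92), where each gene's range overlapped with that of the next. GV CKO oocytes had the same order, with Lonp2 at 126 ± 32.6 and Pex5 at 2.39 ± 1.48 FPKM (SD, n = 4 each). There the range of Pex5 overlapped with that of Pex14.

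In ovulated WT oocytes Pex3 at 50.9 ± 4.33 FPKM and Lonp2 at 50.02 ± 6.94 FPKM (SD, n = 3 each) led with overlapping ranges. Pex11a followed at 36.8 FPKM, then Pex5 at 5.58 and Pex19 at 5.41 with overlapping ranges, Abcd3 at 2.87, Pex14 at 1.35 and Pex11g at 0.123 FPKM. In ovulated CKO oocytes Lonp2 led at 158 ± 44.9 FPKM (SD, n = 3) with no overlap with Pex3 at 38.9 FPKM. In WT the receptor Pex5 thus stood last of the 8 at the GV stage and had rank 4 after ovulation. Its docking partner Pex14 had rank 7 at both stages in WT. In ovulated CKO oocytes Pex5 had rank 5 and Pex14 rank 6, with overlapping ranges.

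The wider peroxisome list held 57 further genes beside the 8 and Mff, in 8 roles. Between the genotypes 0 of the 50 tested were called in GV oocytes (median log2 fold change 0.07). DESeq2 also called 0 there, and 1 had an unadjusted p under 0.05 in the edgeR test. In ovulated oocytes 3 of 45 were higher in CKO and 0 lower, with a median of 0.09, and DESeq2 called 4 higher and 1 lower. Of all genes 6.44% were higher and 1.4% lower in the edgeR test, so the list was near the background. Fis1, a tail-anchored protein of mitochondria and peroxisomes that takes part in fission, stood at 3.82 ± 0.738 CPM among ovulated WT libraries. The CKO level of Fis1 at this stage was 18.3 ± 7.68 CPM (SD, n = 3 each), higher by 2.29 on the log2 scale (SE 0.387, adjusted p = 0.00241). Prdx5, a peroxiredoxin found in peroxisomes and mitochondria, measured 2.61 ± 0.505 and 9.69 ± 2.08 CPM (SD, n = 3 each), a change of 1.92 (SE 0.380, adjusted p = 0.00607). Nudt19, a peroxisomal coenzyme A hydrolase, measured 3.95 ± 0.591 and 13.4 ± 4.76 CPM (SD, n = 3 each), a change of 1.79 (SE 0.377, adjusted p = 0.00893), which was lost without ovulated WT 3 and CKO 2 (1.54, adjusted p = 0.1). On log2(FPKM + 1) with no filter all 3 missed the threshold, Fis1 at 2.27 (adjusted p = 0.0771), Prdx5 at 1.78 (0.0682) and Nudt19 at 1.60 (0.1). The same 3 genes were called for the difference of the CKO effect between stages, beside 3.26% of all genes (419 higher and 11 lower). Fis1 stood at 2.11 (adjusted p = 0.0096) and Prdx5 at 1.81 (adjusted p = 0.00823). Nudt19 stood at 1.48 (adjusted p = 0.0481, lost under 17 of 22 alternatives). With length and GC trends removed, the ovulated CKO differences of Fis1 and Prdx5 were 1.44 and 1.19 (adjusted p = 0.0139 and 0.0408).

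From GV to ovulated in WT, 15 of 49 tested genes of the wider list were higher and 20 lower (median -0.55), beside 30.3% higher and 36.2% lower of all genes (median -0.17). The falls included Pex16, which works with Pex3 in membrane insertion (-3.93, adjusted p = 5.73e-07), Prdx5 (-3.77, adjusted p = 1.76e-08) and Fis1 (-2.40, adjusted p = 3.86e-06). The rises included Acbd5, which tethers peroxisomes to the endoplasmic reticulum (1.94, adjusted p = 2.62e-06), Gdap1, a fission factor of both organelles (1.40, adjusted p = 3.29e-05), and the ether lipid genes Far1 (1.75, adjusted p = 8.33e-06) and Agps (2.44, adjusted p = 3.99e-05). Dnm1l, which encodes DRP1 and was named after its values were seen, rose by 0.90 in WT (adjusted p = 0.000785) and 0.72 in CKO (adjusted p = 0.00622), and its CKO differences did not pass, at 0.14 in GV (SE 0.176) and 0.00 in ovulated oocytes (SE 0.227). With length and GC trends removed the falls and rises named first stayed called apart from Fis1 (-0.21, adjusted p = 0.37), with smaller values for Pex16 (-2.12), Prdx5 (-1.67), Acbd5 (1.17), Gdap1 (0.84), Far1 (0.78) and Agps (1.40).

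The counts by role include the 8 genes and Mff, and 18 of these 58 tested genes were higher and 26 lower in WT. They stand beside the same 30.3% higher and 36.2% lower of all genes. In WT the division genes split into 3 higher and 4 lower of 7, and insertion into 1 and 2 of 3. Import split into 4 and 3 of 9, and the transporter and membrane genes into 2 and 3 of 10. Of 16 oxidation genes tested, 3 were higher and 9 lower, of 4 ether lipid genes 3 were higher and 0 lower, of 7 redox and other matrix genes 2 were higher and 3 lower, and both matrix proteases were lower. The lower genes include Acaa1a and Hacl1 (oxidation) and Tysnd1 (protease), named after their counts were seen. Ovulated WT libraries held 0 to 1.08, 0 to 9 and 1 to 18 counts of them. They passed the filter through groups where they were higher, so nothing is drawn from these calls, also in the wider list. In CKO, 8 of the 49 genes without the 8 and Mff were higher and 14 lower (median -0.19). Of all genes 23.2% were higher and 31.2% lower, with the same median. Acaa1a and Hacl1 are among the 14 lower, at 0 and 0 to 5 counts in ovulated CKO libraries. The rises were led by Gdap1 (1.35, adjusted p = 9.13e-05), Acbd5 (1.38, adjusted p = 0.00015), Agps (1.87, adjusted p = 0.00073) and Pex26, the membrane anchor of the import ATPases (1.72, adjusted p = 0.000833). The falls in CKO included Prdx5 (-1.96, adjusted p = 8.16e-06), Pex16 (-3.03, adjusted p = 1.15e-05) and Pxmp4, a peroxisomal membrane protein (-2.08, adjusted p = 2.03e-05).

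**Figure D4:**
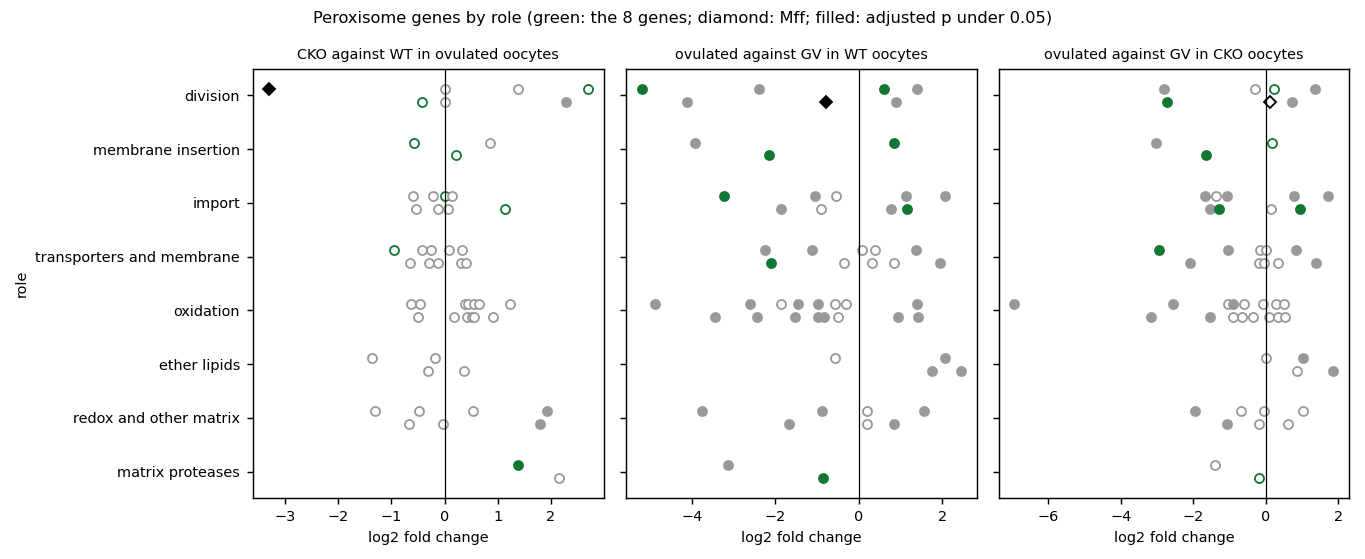
Log2 fold changes (x) of the tested peroxisome genes by role (y), for CKO against WT in ovulated oocytes and for ovulated against GV in WT and in CKO; each point is 1 gene (green the 8 genes, grey the others, diamond Mff), filled where adjusted p is under 0.05, and the x axes differ in range. Few points are filled in the genotype panel (Mff, Fis1, Prdx5, Nudt19 and Lonp2), and most are filled on both sides of 0 in the WT stage panel.

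The gene with the highest mean FPKM of each role in GV WT oocytes was Mff for division (411 ± 44.4 FPKM), Pex3 for membrane insertion (23.4 ± 1.95) and Pex7, the receptor of the second import pathway, for import (62.3 ± 7.53; SD, n = 4 each). For membrane proteins it was Atad1, which extracts misplaced tail-anchored proteins (152 ± 13.2 FPKM), for oxidation Pecr, an enoyl-CoA reductase of chain elongation (926 ± 151), and for ether lipids Gnpat, which starts their synthesis (11.0 ± 2.64; SD, n = 4 each). For the redox and matrix group it was the coenzyme A hydrolase Nudt7 (542 ± 61.7 FPKM) and for proteases Lonp2 (73.3 ± 40.1; SD, n = 4 each). The ranges of Pex7, Atad1 and Gnpat overlapped with those of the next gene of their role, Pex13 (59.4 ± 10.9 FPKM), Slc25a17 (129 ± 28.8) and Far1 (5.74 ± 2.81; SD, n = 4 each), so their order is not settled; Pex13 and Slc25a17 were named after their values were seen. The 8 genes were thus not the most abundant peroxisome transcripts of these oocytes, apart from Pex3 and Lonp2 in their own roles.

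Over the 14 libraries, the log2 CPM of Pex19 correlated with that of Pex14 (r = 0.94) and Abcd3 (0.92), and that of Pex11a with Pex3 (0.81) and inversely with Pex11g (-0.79). These describe 14 points that share 2 stages and their library composition, and no test was made. Among 7822 to 7823 genes compared, the 2 most alike each gene by Pearson correlation were Pold2 (0.995) and Pard6a (0.991) for Pex19, Sgta (0.988) and Get4 (0.982) for Pex14, Slc44a4 (0.983) and Farp2 (0.970) for Abcd3, and Det1 (0.982) and Tspan1 (0.980) for Pex11g. For the others they were Sumo2 (0.961) and Chek1 (0.960) for Pex3, Golm1 (0.942) and Peli1 (0.932) for Pex5, Nubpl (0.922) and Cmtm2a (0.916) for Lonp2, and Fkbp1a (0.908) and Vgll4 (0.900) for Pex11a.

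In RefSeq's GRCm38.p6, Pex19 (Entrez gene 19298) lies on chromosome 1 at 172126755 to 172136497, Abcd3 (19299) on chromosome 3 at 121758904 to 121815302, and Pex14 (56273) on chromosome 4 at 148960535 to 149099843. Pex5 (19305) lies on chromosome 6 at 124396816 to 124415944, Pex11a (18631) on chromosome 7 at 79735957 to 79743131, and Pex3 (56535) on chromosome 10 at 13523842 to 13553142. Pex11g (69129) and Lonp2 (66887) lie on chromosome 8 at 3457105 to 3467648 and 86624043 to 86716636. Pex3 overlaps the coding gene Adat2 on the other strand by 249 bases, and Pex11a and Pex14 overlap the antisense genes Gm44706 and Gm17029 by 1339 and 24137 bases (GENCODE annotation of GRCm38). On the other strand too, Pex11g overlaps Gm44775 by 1456 bases, Pex14 overlaps Gm9506 by 320, and Lonp2 overlaps Gm16177 and Gm22305 by 718 and 108. Whether reads were counted by strand is not stated in the labels or headers, so reads of these overlaps cannot be told apart. Abcd3 overlaps Gm43609 and 4633401B06Rik on its own strand by 2712 and 1073 bases, where counting by strand would not separate the reads.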

How the data were processed

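RNA of 14 mouse oocyte libraries was amplified with SMART-SeqII, per the labels' protocols, a method that primes cDNA on poly(A) tails, so levels count tailed transcripts. Per the file headers, the authors' tables hold, stage by stage, estimated counts per gene (17.6% of GV and 18.3% of ovulated values above 0 not whole, tolerance 0.001) and deposited FPKM, which scale fragments to transcript length and library total. The build was mm10, per the submitters' processing notes; aligner and counter: not given in the sources used here. GV oocytes had 18194 genes listed and ovulated oocytes 16509; 18456 of 18507 identifiers matched RefSeq's GRCm38.p6 table.

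Estimated counts were rounded and fitted per stage with edgeR 4.0.16 in R 4.3.3 (filterByExpr with a count minimum of 10, TMM, robust quasi-likelihood F test), and all 4 groups in 1 fit on genes in both tables for stage and interaction. Printed CPM use the TMM factors of that joint fit, so a within-stage fold can differ slightly from their ratio; principal components used log2 CPM with a prior count of 2, and marker sums used library totals. Alternatives were RLE factors, a minimum mean of 10 CPM, no filter, DESeq2 1.42.0, limma 3.58.1 on log2(FPKM + 1) or log2(FPKM + 0.1) with a mean FPKM of at least 1 or no filter, the replicate number as a block, each library left out, the libraries that stood apart left out, 1 fit over all libraries, and, chosen after seeing the data, length and GC trends removed (lengths for 96.8% to 97% of tested genes). The fits were tested on 3 simulated data sets each with 200 changed genes. Among those with a log2 change of 2, 83.7% were recovered in the GV comparison (12063 to 12089 genes), 61.7% in the ovulated comparison (11718 to 11755 genes), 70.7% between stages in WT (12967 to 13025 genes) and 31.3% in the interaction (12975 to 13015 genes). At a log2 change of 1 these shares were 19%, 14.7%, 12.7% and 1%. In each simulated set 200 genes changed, whereas in the data 2 genes were called in GV oocytes and 66.4% of all genes between stages in WT. The simulated noise was drawn gene by gene, without the component that set GV WT 2, CKO 1 and CKO 2 apart. The Benjamini-Hochberg limit is looser where more genes change, so the stage shares do not carry over to these data.

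Replicates within a group differed by more than counting noise (chi-square per degree of freedom of 20.3 to 336). The members and the lists were chosen with earlier results of these data known. All 8 genes and Mff are named; of the wider list, up to 4 called genes with the smallest p in each direction and comparison, and the gene with the highest GV WT FPKM in each role. The genes most alike each member were sought at a mean of at least 5 CPM, leaving out systematic names. A gene that this rule names is not reported here.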

Additional observations from a re-analysis of the deposited data

Results flagged for a closer look

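Pex19 in GV WT library 2 measured 46.6 CPM, below the other 3 GV WT libraries, and its gap to the nearest of them was larger than Dixon's 95% limit for 4 samples. Chance gives such a gap in about 1 of 20 groups. The 8 genes and Mff were each screened in both GV groups, and no other gap was flagged. This library is also among the GV libraries that stood apart on the first principal component. Leaving the library out did not end the stage call of Pex19.

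The interaction test called a difference of the CKO effect between GV and ovulated oocytes for 4 of 58 peroxisome genes tested. Nothing is drawn from Pex11g among them, with 2 to 11 counts in ovulated WT. The difference was 2.50 for Pex11g, 2.11 for Fis1, 1.81 for Prdx5 and 1.48 for Nudt19. All were higher in ovulated CKO relative to WT than in GV CKO relative to WT. Of all genes tested 3.26% were called, 419 likewise higher and 11 lower, so the shared direction is not particular to these genes. The call was lost under 17 of 22 alternatives for Nudt19 and 8 of 21 for Pex11g.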

How the results depend on the processing

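Of the 8 genes, 0 were called between the genotypes in GV oocytes under every alternative run, and Lonp2 in ovulated oocytes kept its call in 16 of 17. The 2 genes called in all in GV oocytes became 4 with no filter, 57 with DESeq2, 63 without the 3 libraries that stood apart, 1 on log2(FPKM + 1) with no filter, 4 in 1 fit over all libraries, and 2 to 5 with 1 library left out. The 942 of ovulated oocytes became 506 at a mean of at least 10 CPM, 1593 with DESeq2, 235 without WT 3 and CKO 2, 13 on log2(FPKM + 1) with no filter, 1595 in 1 fit, and 341 (without CKO 2) to 1652 (without CKO 1). The share of these calls that were higher went from 82.2% to 65.5% with length and GC trends removed. Of the 8 genes, 2 were called there with no filter, 2 with DESeq2, 0 on log2(FPKM + 1) with no filter, 3 in 1 fit, and 1 with any library left out. Between stages, a mean of at least 10 CPM, which tests fewer genes, gave 5155 genes and 5 of the 8 in WT and 4458 genes and 3 of the 8 in CKO; left-out libraries gave 8188 to 8971 genes and 7 to 8 of the 8 in WT, and 6307 to 7440 and 3 to 5 in CKO. The interaction's 430 genes became 889 with DESeq2, 229 without the 3 GV libraries, 157 without the 2 ovulated libraries, and 129 to 1006 with 1 left out. Of the 8 genes, it called 2 with DESeq2 (Pex14 as well, 2.03, adjusted p = 0.0437, though the edgeR value of 1.95 was 0.93 without ovulated CKO 2), 0 at a mean of at least 10 CPM, 0 with length and GC trends removed (Pex11g 2.28, adjusted p = 0.0672), 0 without the 3 GV or the 2 ovulated libraries, and 0 to 1 with 1 left out. RLE factors moved the median of all genes from GV to ovulated in CKO from -0.19 to -0.08.

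Values near 0 changed sign. In GV oocytes Pex3 (0.03) went to -0.10 with length and GC trends removed and ranged from -0.07 to 0.22 with 1 library left out. Pex11a (-0.11) went to 0.11 without the 3 libraries and 0.01 on all 3 FPKM settings, and ranged from -0.22 to 0.01; Pex5 ranged from -0.09 to 0.42 and Pex11g from -0.05 to 0.34. In ovulated oocytes Pex5 (0.00) went to -0.01 with RLE, no filter or DESeq2, -0.14 with length and GC trends removed, -0.24 without WT 3 and CKO 2 and -0.03 in 1 fit, and ranged from -0.25 to 0.29; Pex19 ranged from -0.05 to 0.42. From GV to ovulated in CKO, Lonp2 went to 0.23 with length and GC trends removed, Pex11a to -0.03 and Mff to -0.08 without the 3 GV libraries; Pex3 ranged from -0.08 to 0.34 and Mff from -0.09 to 0.30. The interaction of Pex5 ranged from -0.42 to 0.08. The causes were not tested.

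Whether the replicate numbers pair the libraries was not settled. Deviations of same-numbered WT and CKO libraries correlated at -0.34, 0.24, 0.05 and 0.45 in GV and 0.08, 0.02 and 0.20 in ovulated oocytes. Differently numbered ones correlated at -0.54 to 0.57 in GV and -0.18 to 0.08 in ovulated oocytes. With the number as a block, 1630 genes and 2 of the 8 were called in ovulated oocytes (Pex11g passed at 2.86, adjusted p = 0.0362), Pex3 in GV went to -0.01, and Pex14 lost its stage call in CKO (-1.13, adjusted p = 0.103). Depth limits Pex11g in ovulated WT oocytes, at 2 to 11 counts.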
